A study of Mus musculus with 7 samples.

Results

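The genes described here are 41 members of 3 linked systems: targets and regulators of the transcription factor NRF2, the enzymes that make and use glutathione, and genes of the Ah receptor. They were taken by symbol from a list of named genes grouped by function, drawn up with earlier results of these data known, and all 41 were found among the 54446 genes of the count table. Polyadenylated RNA was sequenced from spheroids, 3-dimensional cultures of pancreatic epithelial cells, of C57BL/6J wild-type mice. By their labels, the cultures were either post-caerulein, caerulein being a peptide that overstimulates acinar cells and is used to bring on pancreatitis (4 libraries, called post-caerulein 01 to 04), or untreated (3 libraries, untreated 01 to 03). The protocol given for the culture medium is the same for both groups, and that medium holds hydrocortisone, cholera toxin, EGF, nicotinamide, insulin, transferrin and selenium. The labels used here give neither the age or sex of the mice, the dose of caerulein, the time after it nor the passage of the cultures, and do not say whether libraries came from separate animals. What the p-values measure is thus only how far these libraries differ, and part of that may be technical.

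NRF2, encoded by Nfe2l2, is held down by Keap1, an adaptor that marks it for degradation and is modified by oxidants and electrophiles. Freed NRF2 binds antioxidant response elements near genes for glutathione synthesis, thioredoxin and peroxiredoxin cycling, NADPH supply and the conjugation and export of foreign compounds. The Ah receptor, a ligand-activated factor, pairs with ARNT at xenobiotic response elements and drives Cyp1a1, Cyp1b1, Tiparp and its own repressor gene Ahrr. NRF2 activity is set largely at the protein level, which RNA does not show.

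Total counts per library lay between 34783738 and 46744497, and 3 counts, the limit that a count of 0 allows, correspond to 0.0630 to 0.0841 CPM (counts scaled to a common library total), counting error only. Post-caerulein 04 and untreated 03 stood apart from the other 5 libraries, at 58.4 and 70.4 on the first principal component, against -10.8 to 8.06 for post-caerulein 01 to 03 and -67.7 and -63.4 for untreated 01 and 02. The authors' deposited table of fold changes was given back to within 3.16e-08 (log2) with a term for these 2 libraries, called the block below, and not without it. No label says what the block stands for. Within the larger block of 5, untreated 01 and 02 resembled each other closely, as did post-caerulein 02 and 03 (12.4 and 10.2 chi-square per gene, against 66.4 or more for any other pair), so tests that rest on the larger block lean on the small spread inside these pairs. All 10 ductal epithelial markers, Krt19 and Epcam among them, were above 1 CPM in every library, but some varied widely. Cftr was at 39.1, 38.5 and 1.02 CPM in untreated 01 to 03 and 4.66 to 4.76 CPM in post-caerulein libraries. Sox9 was at 10.9, 12.9 and 61.6 CPM in untreated 01 to 03 and 37.1 to 51.7 CPM in post-caerulein libraries. Amylase (Amy2a5) and Ppy were at 0 in all 7 libraries. The 7 leukocyte markers summed to 11.9 to 35.7 CPM in post-caerulein and 20.7 to 98.2 CPM in untreated libraries, with the highest sum in untreated 03. Nearly all of it was Cd68, a lysosomal gene of macrophages, at 97.9 CPM in untreated 03, while Ptprc, the pan-leukocyte gene, was at or under 0.105 CPM in all 7 libraries. The 9 acinar markers summed to 1.75 to 11.8 CPM in post-caerulein and 0.643 to 1.24 CPM in untreated libraries, the 8 islet markers to 0.462 to 4.55 CPM and 0.0247 to 0.400 CPM, and the 9 fibroblast and stellate cell markers to 3.42 to 7.86 CPM and 0.274 to 22.6 CPM. Acinar and islet sums thus separated the groups at low levels, the islet sums only just (0.462 against 0.400 CPM). The acinar separation rested on Ctrb1, at 0.971 to 7.32 CPM in post-caerulein and 0.0421 to 0.222 CPM in untreated libraries, while Cela1 overlapped. The part of these cells in the results below was not tested. In bulk RNA, fewer cells of a type and less RNA per cell cannot be told apart.

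In post-caerulein spheroids 1 member rose and 2 fell in the fit with the block, beside 1.53% of all genes called. Cyp1a1, a cytochrome P450 that oxidises aromatic hydrocarbons, rose. Gsto1, an omega-class glutathione transferase with thioltransferase activity, and Tiparp, an ADP-ribosyltransferase that restrains the Ah receptor, fell. By edgeR's quasi-likelihood test on all 7 libraries, none of these 3 calls was made without the block. Without the block Cyp1a1 was called by DESeq2 and by a likelihood ratio test, and Cyp1a1 and Gsto1 with untreated 03 left out. All 3 were called in the larger block alone. The calls with the block were all lost with the close pairs summed. They were also lost without any one of post-caerulein 02 or 03 or untreated 01 or 02. Nfe2l2 and Keap1 transcripts differed between the groups by less than the spread between libraries. All 11 glutathione transferases were lowest in post-caerulein 04 and untreated 03.

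Of the 41 members 40 passed the filter on low counts, and Ahrr did not. Without the block edgeR's quasi-likelihood test called 0 of the 40 at an adjusted p under 0.05, where it called 0% of the 16438 genes tested. At an unadjusted p under 0.05 there were 9 members (5 higher, 4 lower), beside 9.50% of all genes. With the block it called 3 members, beside 1.53% of all genes (0.651% higher, 0.876% lower). The groups did not overlap for 3 members (Abcc3, Cyp1a1 and Cyp1b1), beside 9.31% of all genes. The median log2 change without the block was 0.03 over the 40 members and -0.02 over all genes tested, and with the block 0.06 and -0.00. Of the 39 members listed in the authors' deposited table, 11 had a false discovery rate under 0.05 (5 higher, 6 lower), beside 7.88% of its genes. Those 11 were Nqo1, Gstm1, Gstt1, Aox1 and Cyp1a1 (higher) and Gsto1, Gpx2, Ephx1, Aldh3a1, Tiparp and Cyp1b1 (lower), with log2 fold changes in the authors' deposited table between -1.25 and 1.74.

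**Figure D1:**
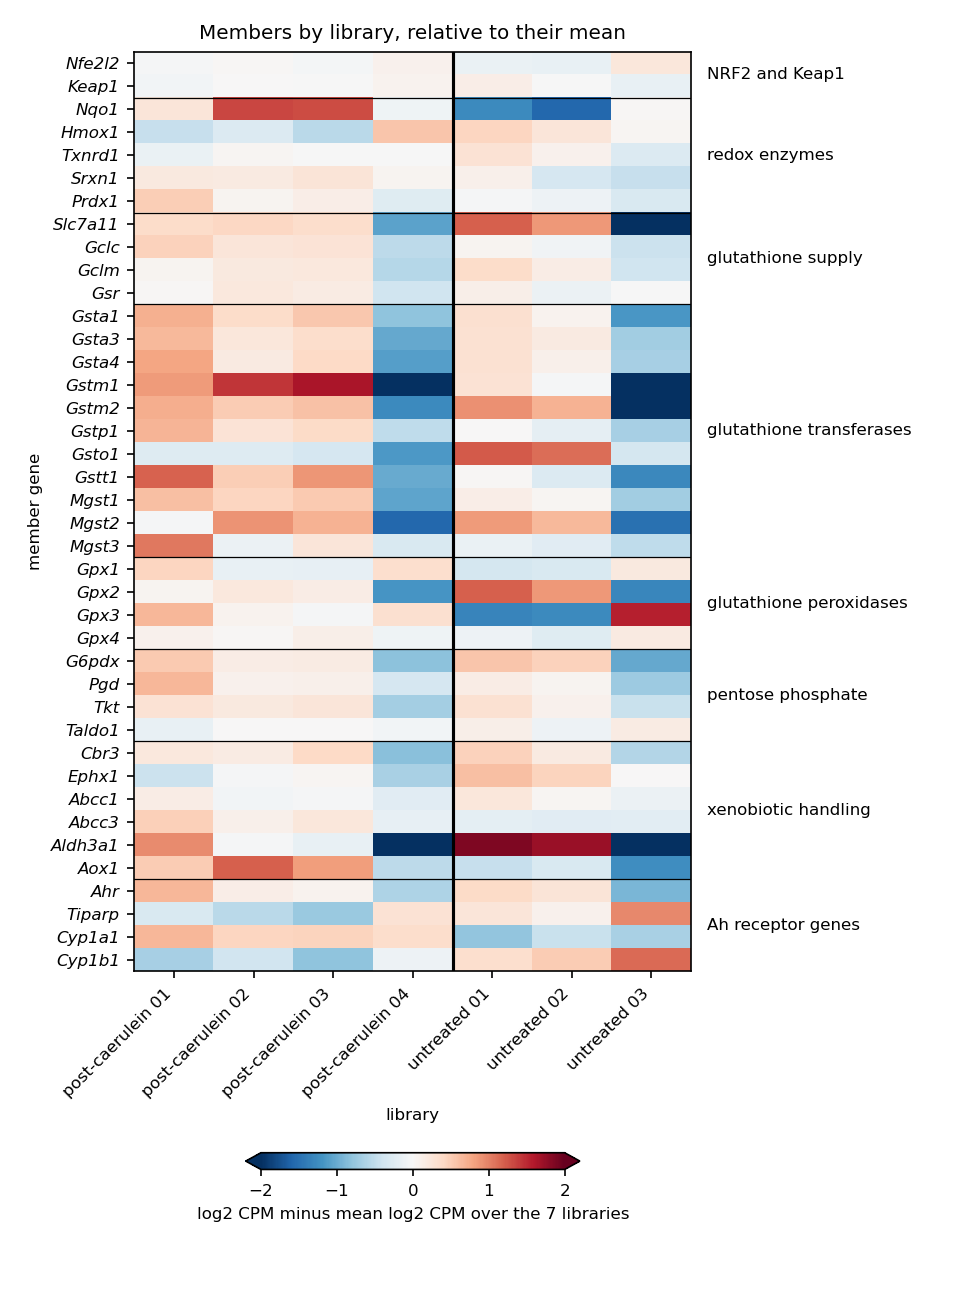
Log2 CPM of each tested member in each library, minus the member's mean over the 7 libraries (colour, limited to 2 in either direction), with the 4 post-caerulein libraries left of the line and the 3 untreated libraries right of it. The columns of post-caerulein 04 and untreated 03 are blue (below the mean) for all 11 glutathione transferases.

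Neither regulator passed a test. Nfe2l2 stood at 313, 323, 307 and 336 CPM in post-caerulein 01 to 04, against 289.5, 285 and 369 CPM in untreated 01 to 03. Its Cullin adaptor Keap1 stood at 69.6, 73.0, 72.3 and 75.6 CPM in post-caerulein libraries and 78.9, 72.3 and 65.5 CPM in untreated ones. The groups overlapped for both genes, with log2 changes without the block of 0.02 ± 0.12 and 0.01 ± 0.10 (SE). Per length, Nfe2l2 averaged 129 and 127 CPM per kilobase of exon (RPKM) in post-caerulein and untreated libraries, and Keap1 16.1 and 16.1 RPKM.

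Among redox enzymes, Nqo1, an NADPH quinone reductase widely used as a readout of NRF2, had the largest log2 change of the 40 members with a wide spread. It stood at 16.1, 34.2, 33.2 and 12.8 CPM in post-caerulein libraries, against 5.59, 4.57 and 13.8 CPM in untreated ones. The groups overlapped because post-caerulein 04 lay below untreated 03. Its log2 change was 1.59 ± 0.51 without the block (SE; edgeR quasi-likelihood adjusted p = 0.355) and 1.71 ± 0.57 with it (adjusted p = 0.183), and neither passed. In the larger block alone Nqo1 rose by 2.48 (log2, adjusted p = 0.00683), while the log2 ratio of post-caerulein 04 to untreated 03 was -0.11. Nqo1 was low beside other members, averaging 15.5 RPKM in post-caerulein and 5.14 RPKM in untreated libraries.

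Hmox1, which encodes the haem-degrading enzyme haem oxygenase, was at 101.1, 115, 95.9 and 203 CPM in post-caerulein libraries and 188, 164 and 144 CPM in untreated ones. Post-caerulein 04 was the highest of all 7 libraries, while post-caerulein 01 to 03 lay below every untreated library. In the larger block Hmox1 fell by 0.74 (log2, adjusted p = 0.00765, edgeR quasi-likelihood), and the log2 ratio of post-caerulein 04 to untreated 03 was 0.50. Srxn1, which repairs overoxidised peroxiredoxins, ranged from 259 to 297 CPM in post-caerulein and 179 to 265 CPM in untreated libraries. Txnrd1, thioredoxin reductase, ranged from 665 to 754 and 605 to 893 CPM, and Prdx1, a peroxiredoxin, from 735 to 1222 and 701 to 852 CPM. None of these 3 passed in either fit.

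**Figure D2:**
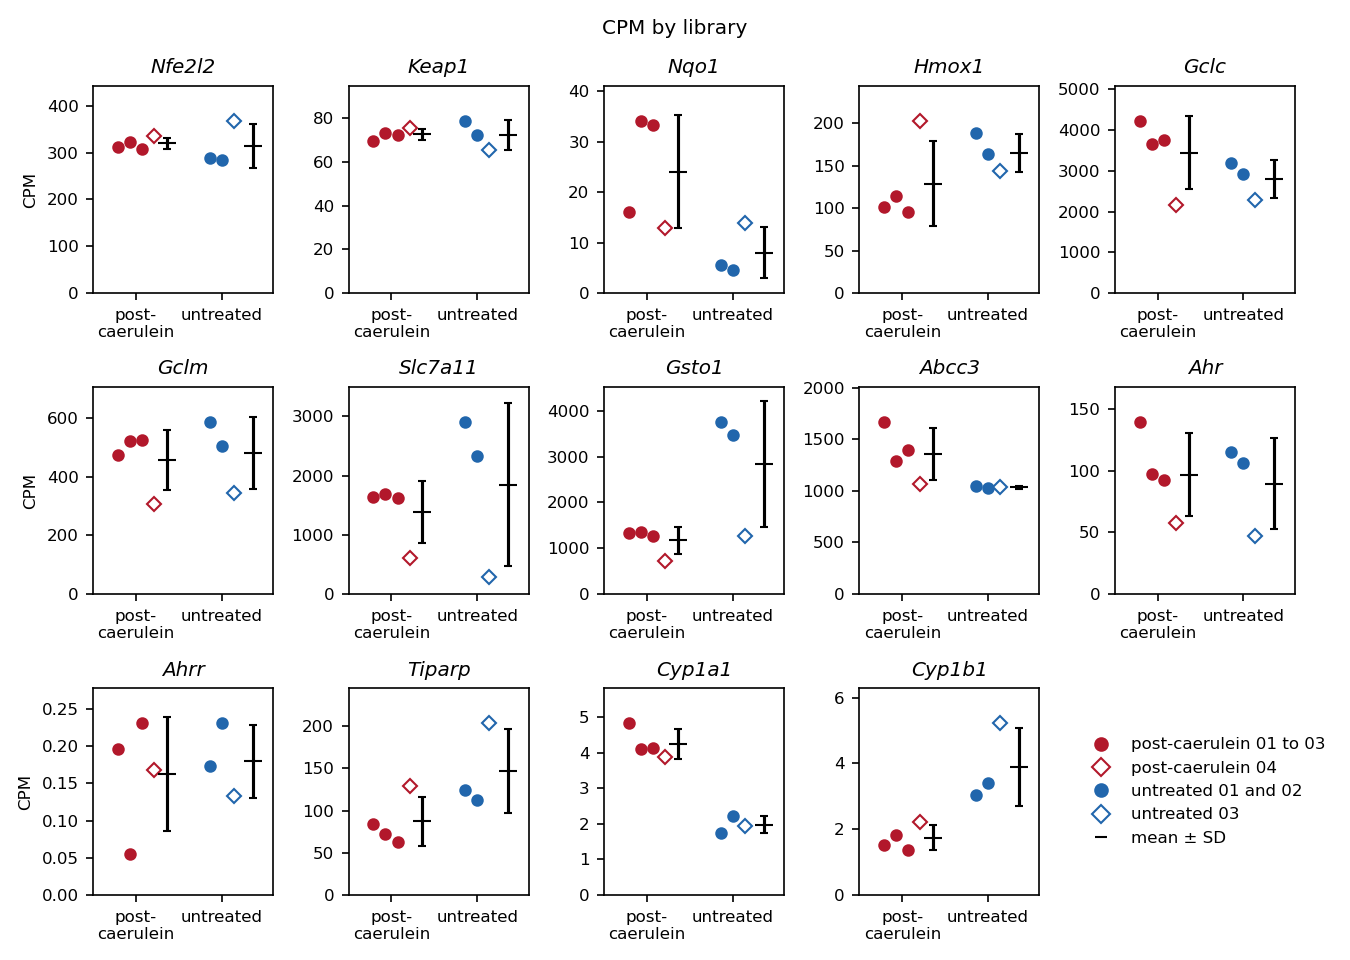
CPM of 14 members in each library, with the 4 post-caerulein libraries left and the 3 untreated libraries right in each panel. Open diamonds mark post-caerulein 04 and untreated 03, and bars give the mean ± SD of each group. Each vertical axis starts at 0.

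Antioxidant response elements were looked for in RefSeq promoter windows (build GRCm38.p6), which run from 250 bases before to 50 bases after an annotated start. The letters searched were TGACNNNGC on both strands. Of the 41 members 33 had a window, and 9 of these (27.3%) held a match, against 13.99% of 27025 genes. The 27025 genes had 32851 windows, and a gene counted if any of its windows held a match. The shares were not adjusted for the number of windows, and members were listed in part because they are NRF2 targets. A match is a description of letters and says nothing of binding. The 9 are printed because they show which members carry the core next to a start. Each is read 5′ to 3′ on the strand of the match, with up to 10 flanking bases and the core in capitals.

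Nfe2l2 chr2:75704885-75704913: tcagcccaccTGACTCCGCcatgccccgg
Prdx1 chr4:116685456-116685484: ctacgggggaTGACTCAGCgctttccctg
Txnrd1 chr10:82859104-82859132: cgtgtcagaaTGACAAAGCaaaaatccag
Srxn1 chr2:152105542-152105570: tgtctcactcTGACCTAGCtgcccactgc
Gclm chr3:122245413-122245441: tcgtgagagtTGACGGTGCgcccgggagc
Gsta3 chr1:21240454-21240482: aactcaggcaTGACATTGCatttttcttc
Mgst1 chr6:138140461-138140489: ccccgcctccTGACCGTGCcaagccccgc
G6pdx chrX:74428919-74428947: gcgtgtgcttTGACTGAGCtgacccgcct
Pgd chr4:149166061-149166089: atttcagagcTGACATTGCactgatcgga

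None of these 9 members passed the test with the block. The Nqo1 and Gsto1 windows held no match, which says only that these letters are not in those windows. For Gclc and Gsr no window was used here.

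Glutathione supply depends on cystine import and on the ligase that joins glutamate to cysteine. Gclc, the catalytic subunit of that ligase, stood at 4235, 3653, 3746 and 2156 CPM in post-caerulein libraries and 3188, 2925 and 2284 CPM in untreated ones. At 1007 and 818 RPKM it was among the most abundant members per length in post-caerulein and untreated libraries. Gclm, the modifier subunit, stood at 476, 522, 527 and 307 CPM in post-caerulein libraries and 589, 506 and 347 CPM in untreated ones. Both subunits were lowest in post-caerulein 04 and untreated 03 and overlapped between the groups.

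Slc7a11, the cystine-glutamate exchanger, varied more between libraries than any other gene of this step. It stood at 1636, 1687, 1626 and 604 CPM in post-caerulein libraries, against 2915, 2329.6 and 293 CPM in untreated ones. Untreated libraries held both its highest and its lowest value, and the highest was 9.95 times the lowest. Its log2 change was -0.41 ± 0.68 without the block and -0.19 ± 0.31 with it (SE), and neither passed. Slc7a11 fell by 0.64 in the larger block (adjusted p = 0.0184, edgeR quasi-likelihood), while the log2 ratio of post-caerulein 04 to untreated 03 was 1.05. Gsr, which regenerates reduced glutathione, ranged from 268 to 407 CPM in post-caerulein and 326 to 382 CPM in untreated libraries.

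Glutathione transferases conjugate glutathione to electrophiles, and 1 of the 11 passed with the block, Gsto1 (ENSMUSG00000025068.7, chromosome 19, 47854970 to 47864790, plus strand, GRCm38). Gsto1 stood at 1337, 1346, 1274 and 726 CPM in post-caerulein 01 to 04, against 3765, 3480.4 and 1256 CPM in untreated 01 to 03. Post-caerulein 01 to 03 lay just above untreated 03 and far below untreated 01 and 02, so the groups overlapped. Means were 1171 ± 298 CPM (SD, n = 4) in post-caerulein and 2834 ± 1374 CPM (SD, n = 3) in untreated libraries. Gsto1 fell by 1.26 with the block (log2, SE 0.15; adjusted p = 0.0226, edgeR quasi-likelihood), whereas without it the log2 change of -1.28 ± 0.39 did not pass (adjusted p = 0.325). It was lower in both blocks, falling by 1.43 in the larger block (adjusted p = 0.000622, edgeR quasi-likelihood) and with a log2 ratio of -0.79 for post-caerulein 04 over untreated 03. Gsto1 was the most abundant member per length in untreated libraries, at 2397 RPKM, and stood at 990.5 RPKM in post-caerulein ones. The call with the block was lost without any one of post-caerulein 02 or 03 or untreated 01 or 02 (adjusted p of 0.0715, 0.0895, 0.182 and 0.198) and with the close pairs summed (0.542).

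The other 10 transferases gave no call with the block. The alpha-class genes Gsta1, Gsta3 and Gsta4 ranged from 77.9 to 223, 267 to 849.7 and 331 to 1227 CPM in post-caerulein libraries and from 60.6 to 169.6, 333 to 669.7 and 447 to 876 CPM in untreated ones. Of the mu class, Gstm1 ranged from 56.8 to 703 CPM in post-caerulein and 49.5 to 276 CPM in untreated libraries, and Gstm2 from 14.5 to 58.1 and 7.87 to 66.1 CPM. Gstp1, of the pi class, ranged from 489 to 1115 and 439 to 700.3 CPM, and Gstt1, of the theta class, from 17.9 to 81.1 and 14.8 to 36.5 CPM. The microsomal genes Mgst1, Mgst2 and Mgst3 ranged from 115 to 362, 0.231 to 1.28 and 60.1 to 154 CPM in post-caerulein libraries and from 148 to 262, 0.245 to 1.24 and 52.2 to 67.7 CPM in untreated ones. Of the 11 transferases 9 had a positive log2 change without the block, beside 7740 of all 16438 genes tested. The class median was 0.38, beside a median of -0.02 over all genes. With the block the class median was 0.20, beside -0.00 over all genes. The log2 ratio of post-caerulein 04 to untreated 03 was negative for Gsta3, Gsta4, Gsto1, Mgst1 and Mgst2, and positive for the other transferases. Members of one class share sequence, and no source used here says how reads that fit several of them were counted.

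The spread of the class followed the block. Both post-caerulein 04 and untreated 03 lay below all 5 other libraries for 11 of 11 transferases and for 24 of the 40 tested members (60%), against 18.2% of all genes tested. They lay above all 5 for 2 members (5%), Nfe2l2 and Tiparp, against 17.9% of all genes tested. Summed over the 41 members, expression was 23380.4, 20731, 21384 and 12821 CPM in post-caerulein 01 to 04 and 24236, 21526 and 13558 CPM in untreated 01 to 03. Mitochondrial transcripts took 2.75% and 2.68% of counts in post-caerulein 04 and untreated 03, and 1.83% to 2.63% in the other 5. Fibroblast markers reached 22.6 CPM in untreated 03 but 7.86 CPM in post-caerulein 04. What these 2 libraries share was not tested.

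Glutathione peroxidases reduce peroxides with glutathione, and none of the 4 passed in either fit. Gpx1, the cytosolic form, ranged from 147 to 221 CPM in post-caerulein and 129 to 189 CPM in untreated libraries, and Gpx4, which acts on membrane lipid peroxides, from 199 to 231 and 180.0 to 241 CPM. Gpx2, the gastrointestinal form, ranged from 42.7 to 111 and 39.2 to 221 CPM, and the secreted form Gpx3 from 6.44 to 10.4 and 2.62 to 19.2 CPM. In the larger block Gpx2 fell by 0.88 and Gpx3 rose by 1.59 (adjusted p of 0.00453 and 0.0101, edgeR quasi-likelihood). Gpx3 had a log2 ratio of -1.22 for post-caerulein 04 over untreated 03, opposite to the larger block, and Gpx2 one of 0.12.

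The pentose phosphate pathway supplies NADPH for glutathione recycling, and none of its 4 members passed in either fit. G6pdx, its first enzyme, ranged from 176 to 446 CPM in post-caerulein and 153 to 459 CPM in untreated libraries. Pgd, the next NADPH-yielding enzyme, ranged from 516 to 1034 and 396 to 725 CPM. Tkt, transketolase, ranged from 1479 to 2895 and 1749 to 2925 CPM, and Taldo1, transaldolase, from 391 to 436 and 405 to 484 CPM. Their log2 changes with the block lay between -0.10 and 0.26.

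Of the 6 members that convert or export foreign compounds none passed in either fit. Abcc3, an export pump for conjugates (ENSMUSG00000020865.16, chromosome 11, 94343295 to 94392976, minus strand), stood at 1674, 1287, 1398 and 1066 CPM in post-caerulein libraries, against 1050.2, 1025 and 1035 CPM in untreated ones. All 4 post-caerulein values lay above the 3 untreated values, though post-caerulein 04 only just. Its log2 change was 0.39 ± 0.17 without the block (SE; adjusted p = 0.519, edgeR quasi-likelihood) and 0.35 ± 0.14 with it (adjusted p = 0.259). Abcc1, a related pump for glutathione conjugates, ranged from 372 to 486 and 403 to 510.1 CPM.

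Ephx1, microsomal epoxide hydrolase, ranged from 190.2 to 307 CPM in post-caerulein and 298 to 451 CPM in untreated libraries, with a log2 change of -0.64 ± 0.13 with the block (SE; adjusted p = 0.0641, edgeR quasi-likelihood). Its log2 change was -0.62 in the larger block and -0.65 for post-caerulein 04 over untreated 03. Aox1, aldehyde oxidase, ranged from 2.48 to 8.15 and 1.51 to 2.89 CPM, with a log2 change of 1.10 ± 0.24 with the block (SE; adjusted p = 0.0716, edgeR quasi-likelihood). Aldh3a1, an aldehyde dehydrogenase driven by the Ah receptor in other tissues, ranged from 3.30 to 25.7 and 2.60 to 48.6 CPM. It had the widest range of the tested members, with a highest value 18.7 times the lowest. Cbr3, a carbonyl reductase, ranged from 108 to 256 and 129 to 267 CPM.

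Among Ah receptor genes, the mean of Cyp1a1 was higher and the means of Tiparp and Cyp1b1 lower in post-caerulein libraries. None of them passed the quasi-likelihood test on all 7 libraries without the block. Whether the receptor had a part in these differences was not tested. Cyp1a1 (ENSMUSG00000032315.6, chromosome 9, 57687928 to 57703824, plus strand) stood at 4.85, 4.10, 4.13 and 3.89 CPM in post-caerulein 01 to 04, against 1.76, 2.23 and 1.93 CPM in untreated 01 to 03. The groups did not overlap, and every post-caerulein library lay above every untreated one. Cyp1a1 rose by 1.09 ± 0.20 with the block (log2, with SE; adjusted p = 0.0483 in edgeR's quasi-likelihood test), and its change without the block was 1.10 ± 0.22 (unadjusted p = 0.00109, adjusted p = 0.194, edgeR quasi-likelihood). Cyp1a1 rose by 1.15 in the larger block (adjusted p = 0.0180, edgeR quasi-likelihood), and the log2 ratio of post-caerulein 04 to untreated 03 was 1.01. Its level was low in both groups, at 1.52 RPKM in post-caerulein and 0.709 RPKM in untreated libraries. The call with the block was lost without any one of post-caerulein 01, 02 or 03 or untreated 01 or 02 (adjusted p between 0.0785 and 0.291) and with the close pairs summed (0.626). The stricter filter and upper-quartile normalisation also ended it narrowly (0.0524 and 0.0506). In all, 7 of 16 alternatives with the block kept the call. Without the block, DESeq2 and the likelihood ratio test called Cyp1a1 (adjusted p of 1.15e-05 and 0.0254). So did the quasi-likelihood test with untreated 03 left out (adjusted p = 0.0383).

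Tiparp (ENSMUSG00000034640.9, chromosome 3, 65528410 to 65555518, plus strand) stood at 84.6, 72.4, 62.9 and 129 CPM in post-caerulein libraries, against 124, 112 and 204 CPM in untreated ones. Post-caerulein 04 lay above untreated 01 and 02, so the groups overlapped, but inside each block the post-caerulein libraries were lower. Tiparp fell by 0.68 with the block (log2, SE 0.11; adjusted p = 0.0422 by the quasi-likelihood test of edgeR), and its change without the block was -0.75 ± 0.29 (adjusted p = 0.467). It fell by 0.66 in the larger block (adjusted p = 0.0188, edgeR quasi-likelihood), and the log2 ratio of post-caerulein 04 to untreated 03 was -0.66. The call with the block was lost without any one of post-caerulein 02 or 03 or untreated 01 or 02 (adjusted p between 0.118 and 0.271) and with the close pairs summed (0.603). An antisense gene, 4931440P22Rik, overlaps its exons and averaged 2.07 CPM, against 113 CPM for Tiparp.

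Cyp1b1, a P450 that oxidises oestrogens and aromatic hydrocarbons (ENSMUSG00000024087.3, chromosome 17, 79706953 to 79715041, minus strand), was at 1.51, 1.83, 1.37 and 2.23 CPM in post-caerulein libraries, against 3.04, 3.39 and 5.25 CPM in untreated ones. The groups did not overlap, and Cyp1b1 was lower in 4 of 4 post-caerulein libraries. Its log2 change of -1.10 ± 0.20 with the block had an adjusted p of 0.0505 (SE; edgeR quasi-likelihood), just short of the threshold, and without the block it was -1.16 ± 0.30 (adjusted p = 0.269). Cyp1b1 fell by 1.01 in the larger block (adjusted p = 0.0340, edgeR quasi-likelihood), and the log2 ratio of post-caerulein 04 to untreated 03 was -1.24. Over the alternatives run, its adjusted p lay between 0.0118 (DESeq2) and 1 (close pairs summed) without the block, and between 0.000101 (DESeq2) and 0.603 (close pairs summed) with it.

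The receptor gene Ahr did not pass in either fit, and the repressor gene Ahrr did not pass the filter on low counts. Ahr stood at 140.1, 97.2, 92.7 and 57.9 CPM in post-caerulein libraries and 116, 106 and 47.0 CPM in untreated ones, lowest in post-caerulein 04 and untreated 03, with a log2 change of 0.08 ± 0.16 with the block (SE). Ahrr had 7, 2, 11 and 8 reads in post-caerulein libraries and 7, 11 and 6 reads in untreated ones, too few for that filter. At 0.0555 to 0.232 CPM in post-caerulein and 0.133 to 0.232 CPM in untreated libraries, the groups overlapped for Ahrr. How small a difference in Ahrr could be detected at this depth was not tested.

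**Figure D3:**
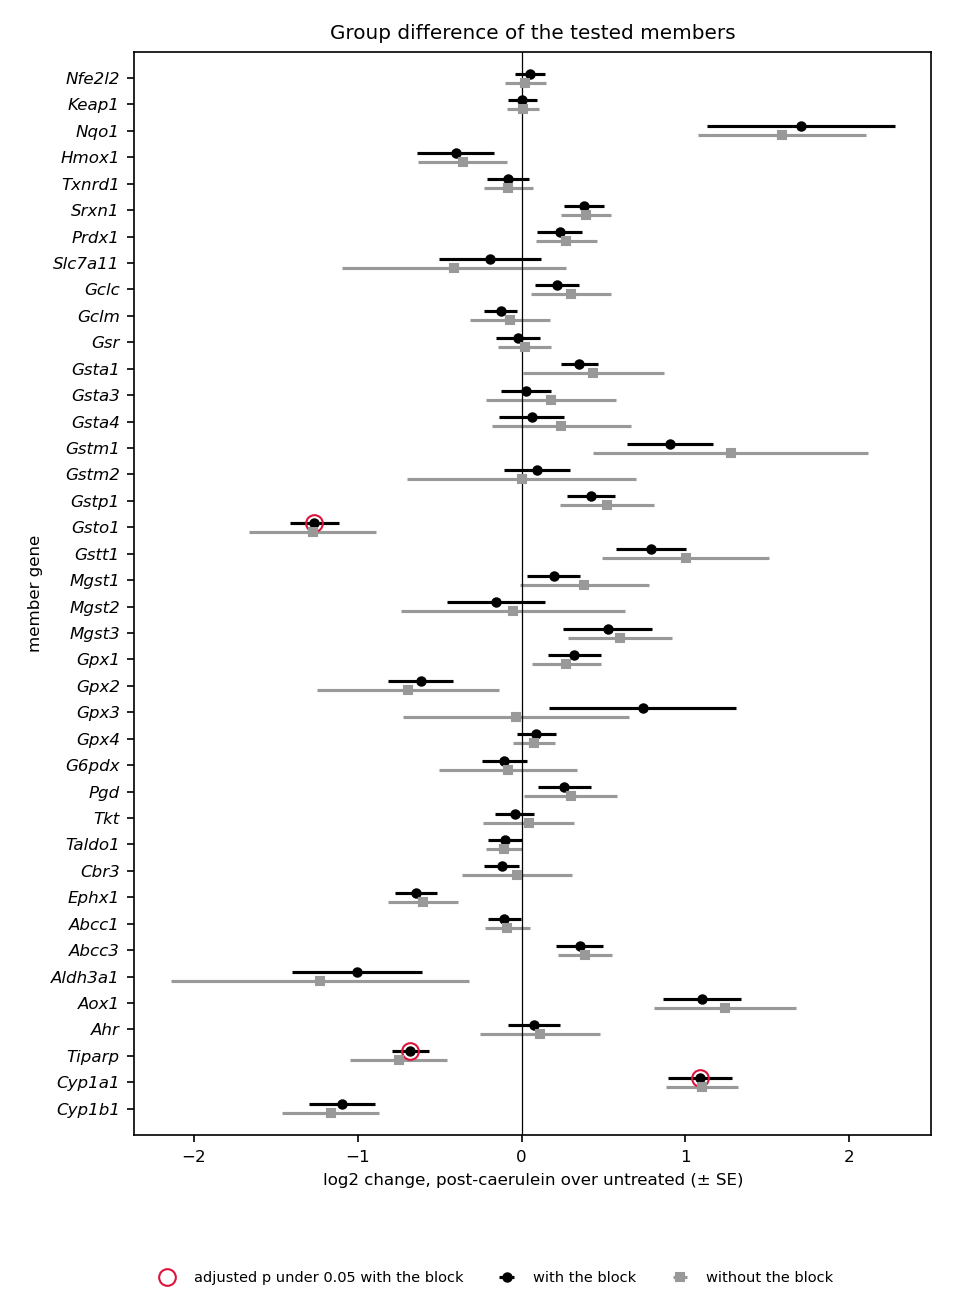
Log2 change, post-caerulein over untreated, with its SE for the 40 tested members, with the block (black circles) and without it (grey squares). Red rings mark Gsto1, Tiparp and Cyp1a1, the 3 members with an adjusted p under 0.05 with the block. For all 11 glutathione transferases the grey bar is longer than the black one.

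The core of the xenobiotic response element, GCGTG on either strand, was matched in the same RefSeq windows. It was found for 19 of the 33 members with a window (57.6%), against 35.2% of 27025 genes. As above, a gene counted if any of its windows held a match, with no adjustment for the number of windows or their G and C. The 250 bases before the start are printed for 3 Ah receptor targets that each held 1 match, Cyp1a1 (higher in post-caerulein libraries) and Cyp1b1 and Tiparp (lower). Ahrr also held matches but did not pass the filter on low counts, and is not printed. Each is on the strand of its gene, and capitals mark the core (GCGTG, or CACGC where the match is on the other strand).

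Cyp1a1 chr9:57697363-57697612: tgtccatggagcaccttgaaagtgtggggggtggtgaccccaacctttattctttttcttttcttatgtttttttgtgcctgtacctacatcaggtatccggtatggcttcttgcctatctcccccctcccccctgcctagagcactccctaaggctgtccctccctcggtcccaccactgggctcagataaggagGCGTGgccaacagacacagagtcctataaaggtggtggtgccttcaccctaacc
Cyp1b1 chr17:79715062-79715311: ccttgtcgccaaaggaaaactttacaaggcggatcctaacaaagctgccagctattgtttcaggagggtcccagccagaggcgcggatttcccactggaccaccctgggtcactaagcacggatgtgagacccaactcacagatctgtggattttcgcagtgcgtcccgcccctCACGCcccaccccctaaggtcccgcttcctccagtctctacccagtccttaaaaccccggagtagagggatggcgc
Tiparp chr3:65528197-65528446: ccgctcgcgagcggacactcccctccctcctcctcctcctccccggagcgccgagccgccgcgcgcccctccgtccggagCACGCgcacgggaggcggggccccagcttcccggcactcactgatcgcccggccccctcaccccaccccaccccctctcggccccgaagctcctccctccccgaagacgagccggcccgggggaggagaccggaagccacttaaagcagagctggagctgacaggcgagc

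The match lay at -54 to -50 in Cyp1a1, -76 to -72 in Cyp1b1 and -170 to -166 in Tiparp, counted from the annotated start as 0. G and C made up 53.6%, 58.0% and 75.2% of these stretches. Windows of this length leave out the distal enhancer where the known elements of mouse Cyp1a1 lie, and nothing about receptor binding follows from a match.

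In the larger block alone 16 of the 40 members passed (8 higher, 8 lower), beside 13.8% of all genes. These were Nqo1, Gstm1, Gstp1, Gstt1, Mgst1, Gpx3, Aox1 and Cyp1a1, which rose, and Hmox1, Slc7a11, Gsto1, Gpx2, Ephx1, Aldh3a1, Tiparp and Cyp1b1, which fell. For 9 of the 16 the ratio of post-caerulein 04 to untreated 03 had the same sign, and for 7 (Nqo1, Gpx3, Mgst1, Hmox1, Slc7a11, Gpx2 and Aldh3a1) the opposite one. Both comparisons are small, the first leaning on close pairs and the second resting on 1 library a group. The difference between the blocks was not tested.

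**Figure D4:**
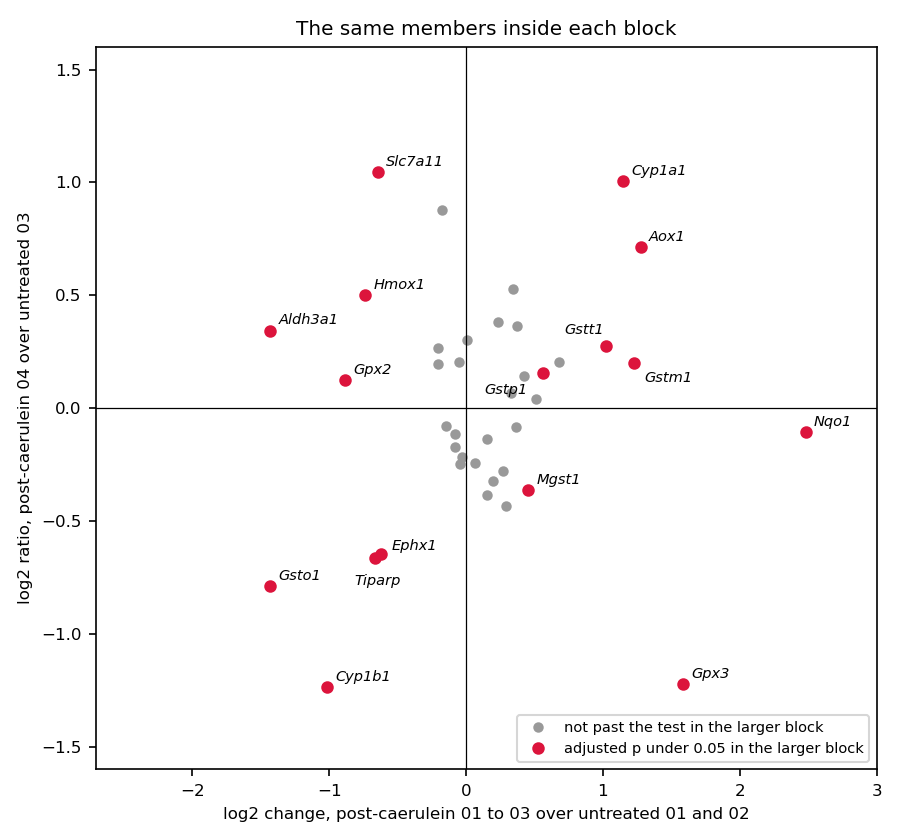
Log2 change of each tested member in the larger block (post-caerulein 01 to 03 over untreated 01 and 02, horizontal) against the log2 ratio of post-caerulein 04 to untreated 03 (vertical). Red points passed the test in the larger block. Cyp1a1, Gsto1, Tiparp and Cyp1b1 have the same sign on both axes, while Nqo1, Slc7a11, Hmox1 and Gpx3 do not.

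A further 85 genes of the same pathways were followed as a group, and 83 were tested. Without the block 0 passed, with 9 higher and 5 lower at an unadjusted p under 0.05 (edgeR quasi-likelihood), beside 9.50% of all genes. With the block 1 of the 83 fell and 0 rose, beside 1.53% of all genes, so the group held no more calls than the background. The gene that fell was Por, the reductase that passes electrons to all microsomal P450 enzymes. Por stood at 456, 566, 566 and 472 CPM in post-caerulein libraries, against 844, 775 and 834 CPM in untreated ones, and the groups did not overlap. It fell by 0.67 with the block (log2, SE 0.12; adjusted p = 0.0468, edgeR quasi-likelihood). Por did not pass without the block (adjusted p = 0.185, edgeR quasi-likelihood), nor with the block and the close pairs summed, where 0 genes were called. The other 10 regulators of NRF2, 13 further NRF2 targets, 24 glutathione genes, 16 peroxide genes and 5 pentose phosphate genes gave 0 calls with the block. Of the NRF2 targets 12 of 13 had a positive log2 change without the block, beside 7740 of all 16438 genes, but 0 of the 13 reached an unadjusted p under 0.05. Their median log2 change was 0.21 without the block and 0.14 with it, beside -0.02 and -0.00 over all genes. Both libraries of the smaller block lay below the other 5 for 30 of the 83 tested (36.1%), against 18.2% of all genes.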

How the data were processed

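Gene-level read counts, not normalised, were deposited by the authors with exon positions and lengths, per the file headers. Per the submitters' processing notes featureCounts 0.6.1 and GRCm38 (mm10) were used. The aligner, the strand setting and the treatment of multi-gene reads are stated in none of the sources used. The authors' deposited table gives log2 fold changes, the likelihood ratio score, p-values and false discovery rates, per the file headers, from edgeR 3.2.2 per the submitters' processing notes.

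The 54446 genes were given symbols by Ensembl ID (54409 matched). Genes passing filterByExpr (at least 10 counts, 15 in total) entered the quasi-likelihood test of edgeR 4.0.16, which is two-sided, after TMM normalisation. Benjamini-Hochberg adjustment ran over all 16438 of them, with a call at an adjusted p under 0.05. CPM uses TMM-scaled totals, and RPKM divides it by the deposited exon length. Fits had the group alone or the group and the block. Code was tested on simulated data. Members, lists and tests were chosen with earlier results of these data known. CPM in each library is given for members called in either fit or with groups that do not overlap, and for 12 set regulators, targets and Ah receptor genes. Other members are given by range. Alternatives are other normalisations and filters, DESeq2 1.42.0, limma-voom (limma 3.58.1), a likelihood ratio test, each library left out, the replicate number as a block, summed close pairs and the larger block alone. R 4.3.3 and matplotlib 3.10.9 were used.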

Additional observations from a re-analysis of the deposited data

Results flagged for a closer look

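In the group of 4 post-caerulein libraries, 5 of the 41 members had 1 library far from the other 3, and it was post-caerulein 04, the lowest, in all 5. The nominal rate of marking by chance is about 5% of groups, but the share over all genes was not computed. Post-caerulein 04 also stood apart from its group over all genes (58.4 on the first principal component, against -10.8 to 8.06). The 5 genes share that library, so they are not separate observations. Slc7a11, the cystine exchanger gene, was at 604 CPM there, and the nearest of the others was at 1626 CPM. Gsto1 was at 726 CPM, the nearest being at 1274 CPM. Mgst1 was at 115 CPM, the nearest being at 323 CPM. Gpx2 was at 42.7 CPM, the nearest being at 100.1 CPM. Tkt was at 1479 CPM, the nearest being at 2709 CPM. All 5 genes were also lower in untreated 03 than in untreated 01 and 02.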

How the results depend on the processing

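Counts were lowest for Mgst2, Cyp1a1, Cyp1b1 and Aox1 among tested members, and Ahrr did not pass the main filter. With no filter Ahrr was tested and was not called in either fit. Without the block 0 members were called in the reported fit and 3 with the block of the deposited table, 3 with DESeq2 (Cyp1a1, Cyp1b1 and Nqo1, of 509 genes called), 1 with the likelihood ratio test (of 343 genes), 16 in the larger block alone (of 2247 genes) and 0 to 4 with 1 library left out, the 4 without untreated 03 (of 1149 genes). No member was called without the block by limma-voom, with no filter (23 genes), with the stricter filter of 50 counts in 3 libraries, with another normalisation or with the close pairs summed. With the block 3 members were called, against 9 with DESeq2 (of 1366 genes), 9 with the likelihood ratio test (of 1227), 6 with no filter (of 602), 0 with the close pairs summed (of 0 genes, with 1130 at an unadjusted p under 0.05) and 0 to 16 with 1 library left out. The 0 arose without post-caerulein 02 or 03 or untreated 01 or 02 (29, 3, 0 and 0 genes called), the 15 without post-caerulein 04 (2086 of 16079 genes) and the 16 without untreated 03 (2267 of 16828 genes). Leaving out either of those last 2 makes the fit with the block a comparison inside the larger block. The larger block alone could not be fitted with the block. The stricter filter called 138 genes against 251. Groups did not overlap for 3 members, 3 to 16 with 1 library left out and 26 in the larger block alone. The share over all genes grew too, from 1531 of 16438 genes to 3025 of 16079 without post-caerulein 04 (16 members), 5962 of 16828 without untreated 03 (14 members) and 7575 of 16276 in the larger block. The cause of these shifts was not tested.

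Deviations from the group mean correlated at 0.372, 0.141 and -0.21 between libraries of the same replicate number, and 1 of 3 libraries correlated best with its own number. The block was not removed first, so these values cannot say whether the replicate numbers pair the libraries. With the replicate block 0 members were called without the block of the deposited table, and 9 with it (of 1184 genes), not including Cyp1a1 (adjusted p = 0.0969). No log2 change of Gsto1, Tiparp, Cyp1a1, Cyp1b1 or Abcc3 changed sign under any alternative run.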

Other observations

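A few further pathway genes stood out and were chosen after their values were seen. Ugt1a7c, a glucuronosyltransferase gene, was at 48.7, 27.7, 36.3 and 22.4 CPM in post-caerulein libraries, against 181, 157 and 25.5 CPM in untreated ones, the low untreated value being that of untreated 03. Sod3, the extracellular superoxide dismutase, was at 11.8, 6.90, 8.02 and 7.14 CPM in post-caerulein libraries and 2.38, 3.86 and 4.91 CPM in untreated ones, and the groups did not overlap. Rpia, of the non-oxidative pentose phosphate branch, was at 42.7, 54.1, 51.8 and 50.7 CPM in post-caerulein libraries and 86.9, 75.3 and 56.4 CPM in untreated ones. Its groups did not overlap either. None of these 3 passed edgeR's quasi-likelihood test in either fit, with adjusted p with the block of 0.0847, 0.105 and 0.104. In the authors' deposited table, which gives a likelihood ratio score, their false discovery rates were 5.04e-06, 0.00734 and 0.0191.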
